A study of Mus musculus with 21 samples.

Results

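MHC class I antigen presentation was followed through 10 genes in Nes low mesenchymal cells of the bone marrow: H2-K1, H2-D1, B2m, Tap1, Tap2, Tapbp, Psmb8, Psmb9, Psmb10 and Nlrc5. They were picked by symbol for their roles in the pathway, with earlier results of these data known. All 10 were found among the 26852 genes of the deposited table. Each had a mean over the 21 libraries of at least 3.32 on the log2 scale, the filter that left 12976 genes for testing.

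Class I molecules show short peptides from inside the cell at the surface of nearly all nucleated cells, where CD8 T cells read them. The proteasome cuts proteins into peptides, in cells under interferon with the exchangeable subunits Psmb8, Psmb9 and Psmb10, a transporter made of Tap1 and Tap2 carries the peptides into the endoplasmic reticulum, and tapasin (Tapbp) helps to load them onto a heavy chain paired with B2m. Interferons raise most of these genes, Nlrc5 is a transcriptional regulator of them, and stromal cells of the bone marrow are known to carry class I at rest and to gain class II under interferon-γ.

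The study compared niche cells of healthy and leukemic bone marrow at early and late stages of human acute myeloid leukemia (AML). HL60 and ML1, human AML cell lines, released sLP-mCherry, a red fluorescent protein that enters neighbouring cells, so that early Nes low cells could be sorted into mCherry-positive (ch+) cells near leukemia and mCherry-negative (ch-) cells farther from it. RNA was sequenced in bulk, from 2 ng of total RNA per library by the labels, while the study's methods name another amount. The ctrl group held 3 libraries of mice without a graft (replicates 373, 374 and 375), and early ch-, early ch+ and late cells had 6 libraries each, 3 per cell line.

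All mice were of the strain labelled Nestin+ NSG, in which a Nestin-driven green fluorescent protein defines Nes low cells, and the grafted mice received AML cells at 8 to 12 weeks of age without conditioning. The labels give no days after grafting, no age at sorting and no pooling. The study states that mice were killed at an age of 13 to 20 weeks and gives human engraftment as 70% to 80% at the late and 1% to 10% at the early stage. The study describes ch- cells as coming from the same marrow as ch+ cells, but the labels do not say which libraries share a mouse. Late cells were sorted without the mCherry marker, so stage and sort cannot be told apart in comparisons of late with early cells. NSG mice lack mature T, B and NK cells, among them the CD8 T cells that read class I. The H2 genes of NSG mice come from the NOD strain, while the reads were aligned to the reference mouse genome. The effect of this on H2-K1 and H2-D1 was not tested. The treatment field of the 3 late ML1 libraries reads unengrafted, against their titles and time point. They were kept as late, and late HL60 is given apart against ctrl and against late ML1. Blood cells of man and mouse were depleted with magnetic beads against CD45 before the sort, and the cells were stained for CD45 and Ter119.

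Values are the regularized log2 normalized counts of the deposited table. The read depth of each library is not given, and the regularization draws values of weakly expressed genes toward their mean. Converted from log2, the library sums in megacounts were 11.9 to 14.2 in ctrl and 7.27 to 9.02 in late libraries. The labelled cell type was checked against markers. All 10 mesenchymal markers passed the filter, with Lepr between 12.24 and 14.81 and Cxcl12, a chemokine that retains blood cells in the marrow, between 14.89 and 16.44 in the 21 libraries. A protocol label speaks of CD31+ endothelial cells, but the marker Pecam1, which encodes CD31, lay between 4.53 and 6.21. The summed normalized counts of 10 endothelial markers were 268 to 634, with Cdh5 giving 21.8% of them, against 46580 to 138671 for the mesenchymal markers, of which Cxcl12 gave 65.2%. Osteoblast markers, above all Col1a1, summed to more than the mesenchymal ones in ctrl, at 1232258 to 1683224.

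Levels of different genes were set side by side per kilobase of merged exons of all annotated transcripts. This length can exceed that of any single transcript, and its part in the order of genes was not tested. B2m, the invariant light chain, was highest with a mean of 13.52 on the log2 scale per kilobase, above 99.9% of 12940 tested genes with a length. H2-D1 followed at 10.86, H2-K1 at 8.37 and Tapbp at 6.83, and each of these steps down to the next gene held in 21 of 21 libraries, as did the step from Tapbp to Psmb10. All 21 libraries share the alignment of NOD-derived H2 reads to the reference genome. Its part in the steps at H2-D1 and H2-K1 was not tested. Below them lay Psmb10 at 5.53, Psmb8 at 4.99, Tap1 at 4.51, Psmb9 at 4.24, Tap2 at 3.69 and Nlrc5 at 3.61. The order of these 6 varied between libraries: Psmb10 exceeded Psmb8 in 18 of 21, Tap1 exceeded Psmb9 in 14, and Tap2 exceeded Nlrc5 in 11. Class I chains were thus among the strongly expressed genes of Nes low cells, while Tap2 and Nlrc5 ranked above 30.7% and 29.3% of tested genes.

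Late leukemia was compared with ctrl to see how the pathway stood at full disease. 7 of the 10 genes were deregulated (adjusted p under 0.1 over all tested genes, limma), all of them higher in late cells: H2-K1, H2-D1, B2m, Tap1, Tap2, Tapbp and Psmb9. Over all tested genes 21.5% were deregulated, 1321 higher and 1474 lower. The median log2 fold change of the 10 genes was 0.70, against 0.02 over all tested genes, and 10 of 10 had a fold change above 0. In 3 of them (H2-K1, Tap2 and Tapbp) the 6 late libraries all lay above the 3 ctrl libraries, beside 19.1% of all tested genes without overlap in either direction. In bulk RNA, a change in the share of cells of a type and a change in RNA per cell cannot be told apart. Without ctrl replicate 375 the count was 2, beside 2212 of 12976 tested genes called. These 2 were H2-K1 (adjusted p = 0.00540) and H2-D1 (adjusted p = 0.0249). The count was 4 without late ML1 replicate 581 or 583. Tap1 lost its call in 8 of the 21 fits that left out 1 library, Tap2 in 6 and B2m in 4. With each library rescaled to the mean library total, 8302 of the 12976 tested genes were called, the median of all tested genes moved from 0.02 to 0.71, and the median of the 10 genes lay 0.68 above it.

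**Figure D1:**
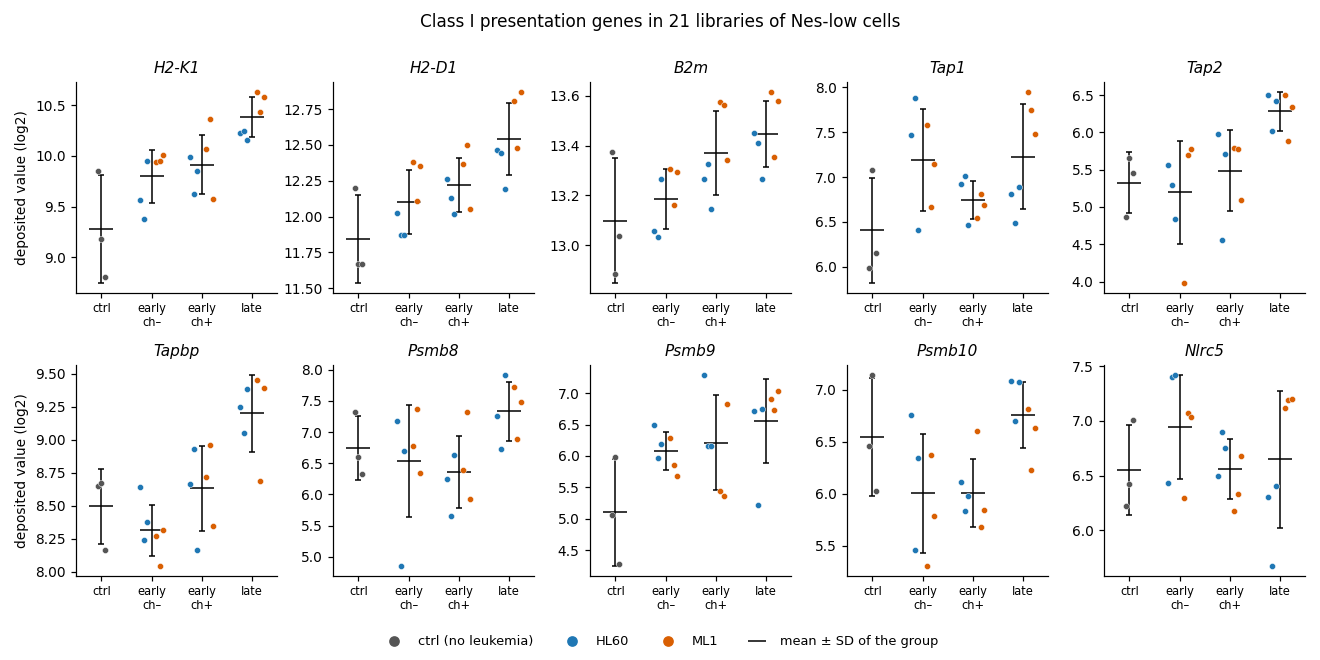
Deposited log2 values (vertical axis, its range set per gene) of the 10 class I presentation genes in ctrl, early ch–, early ch+ and late libraries. Each point is 1 of 21 libraries, colored by cell line, and bars give the mean and SD of the group (n = 3 in ctrl, n = 6 elsewhere). The 6 late libraries lie above the 3 ctrl libraries in H2-K1, Tap2 and Tapbp, and Nlrc5 is split by cell line in late cells.

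Early leukemia was compared with ctrl in ch+ and ch- cells, and all these comparisons share the same 3 ctrl libraries with the late one. In early ch+ cells 1 of the 10 genes was deregulated, H2-K1, beside 6.17% of all tested genes, and 4 had an unadjusted p under 0.05 (H2-K1, H2-D1, B2m and Psmb9), as had 16.8% of all tested genes. The median log2 fold change of the 10 was 0.21. The count was 2 without ctrl replicate 373, where H2-D1 was also called (adjusted p = 0.0862), and without replicate 374 Psmb9 was called (adjusted p = 0.0756) in place of H2-K1. The count was 0 by limma without ctrl replicate 375 or early ch+ ML1 replicate 538 or 539. In early ch- cells limma called 0 of the 10 genes, beside 1.92% of all tested genes, and 3 had an unadjusted p under 0.05 (H2-K1, Tap1 and Psmb9), as had 11.9% of all tested genes. Their median was 0.17. Without ctrl replicate 373 the count was 1, H2-K1 (adjusted p = 0.0464).

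The comparison of ch+ with ch- cells asks what differs with closeness to leukemia at the early stage. limma called 0 of the 10 genes, beside 6.26% of all tested genes, and 0 had an unadjusted p under 0.05, beside 15.4%. Their log2 fold changes ran from −0.45 (Tap1) to 0.32 (Tapbp), with a median of 0.12 against −0.02 over all tested genes. Within HL60 the count was 0 beside 3.92% of tested genes, and within ML1 0 beside 4.25%, again with 0 of the 10 genes at an unadjusted p under 0.05 in limma, beside 12.5% of tested genes in HL60 and 13.8% in ML1. The ch+ effect did not pass the test of a difference between the lines for any of the 10 genes (0 called, beside 0.00771% of tested genes, and 0 at an unadjusted p under 0.05 by limma).

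Late cells were also compared with early cells of leukemic mice, which leaves the ctrl libraries out of the contrast. Against early ch- cells, 6 of the 10 genes were higher in late cells (H2-K1, H2-D1, B2m, Tap2, Tapbp and Psmb10), beside 22.5% of all tested genes, and H2-K1, Tap2 and Tapbp did not overlap between the groups, beside 9.90% of all tested genes. Tapbp had a log2 fold change of 0.89 (SE 0.16, adjusted p = 0.000142). B2m lost its call without any of 6 libraries: early ch- HL60 replicate 527 or 528, early ch- ML1 replicate 544, late HL60 replicate 397, or late ML1 replicate 581 or 583 (adjusted p up to 0.187). Psmb10 lost its call without early ch- HL60 replicate 528, early ch- ML1 replicate 543, or late HL60 replicate 397 or 399 (adjusted p up to 0.130). Psmb8, with a log2 fold change of 0.79 (adjusted p = 0.111), was called without early ch- HL60 replicate 527, early ch- ML1 544, early ch+ ML1 539, late HL60 398 or late ML1 582 (adjusted p from 0.0549 to 0.0967).

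Against early ch+ cells, 6 of the 10 genes were higher in late cells (H2-K1, H2-D1, Tap2, Tapbp, Psmb8 and Psmb10), beside 19.7% of all tested genes. Their log2 fold changes included 0.97 for Psmb8, 0.80 for Tap2, 0.57 for Tapbp and 0.47 for H2-K1. This count rested on several libraries: it was 1 without early ch+ HL60 replicate 524 or late ML1 replicate 581, 2 without early ch+ ML1 replicate 541, and 3 without late HL60 replicate 397 or 399 or late ML1 replicate 583. Leaving out 1 library ended the call of H2-D1 in 10 of 21 fits, of Tap2 in 6, of Psmb10 in 5 and of H2-K1 and Psmb8 in 4 each. Tapbp was called in each of the 21 fits that left out 1 library (adjusted p up to 0.0453). Rescaling to library totals put the median of all tested genes at 0.63 here and at 0.77 against early ch- cells, and the median of the 10 genes stood 0.46 and 0.53 above these medians.

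The lines were taken apart. In late HL60 cells 3 of the 10 genes were higher than in ctrl (H2-K1, H2-D1 and Tapbp), beside 13.7% of tested genes, and 6 had an unadjusted p under 0.05, beside 21.3% of tested genes. The count fell to 1, H2-K1, without ctrl replicate 375. H2-D1 also lost its call without ctrl replicate 374, and Tapbp without late HL60 replicate 397 or 399. In late ML1 cells 6 were higher (H2-K1, H2-D1, B2m, Tap1, Tapbp and Psmb9), beside 22.0% of tested genes. There 7 of the 10 genes had all 3 libraries above the ctrl libraries, against 3 in late HL60 cells. Over all tested genes 33.8% did not overlap with ctrl in late ML1 cells and 26.3% in late HL60 cells. H2-K1, H2-D1, Tap1 and Psmb9 kept their calls in late ML1 cells in each of the 21 fits without 1 library, while B2m lost its call without ctrl replicate 374 (adjusted p = 0.122) and Tapbp without ctrl replicate 375 or late ML1 replicate 581 or 583 (up to 0.203).

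Late HL60 and late ML1 cells were then compared directly. limma called 0 of the 10 genes, beside 4.09% of tested genes, but 3 had an unadjusted p under 0.05, all lower in HL60: Nlrc5 (log2 fold change −1.04, adjusted p = 0.107), Tap1 (−0.998, adjusted p = 0.164) and H2-D1 (−0.35, adjusted p = 0.313). Over all tested genes 10.9% had an unadjusted p under 0.05. In 4 genes (H2-K1, H2-D1, Tap1 and Nlrc5) the 3 HL60 libraries lay below the 3 ML1 libraries, and 21.8% of tested genes did not overlap between these groups. The median over the 10 genes was −0.24, against 0.01 over all tested genes. The count was 1 without ctrl replicate 375, early ch- HL60 replicate 527 or early ch- ML1 replicate 543 (Nlrc5, adjusted p from 0.0831 to 0.0927) and without early ch- HL60 replicate 529 (Tap1, adjusted p = 0.0999).

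The early stage by line gave fewer calls. In early ch+ HL60 cells 1 gene, Psmb9, was higher than in ctrl, beside 5.33% of tested genes, and it lost its call without any of 9 libraries, among them early ch+ HL60 replicate 523, where the adjusted p was 0.348. The others were ctrl replicates 373 and 375, early ch+ HL60 replicates 524 and 525, early ch- HL60 replicate 527 and late ML1 replicates 581, 582 and 583. Without ctrl replicate 373 the count was 2. In early ch+ ML1 cells the heavy chains H2-K1 and H2-D1 and their partner B2m were higher, 3 of the 10 genes beside 6.69% of tested genes, and the count was 0 by limma without ctrl replicate 374 or 375 or early ch+ ML1 replicate 538 or 539. The lines did not differ by the test: in ch+ cells 0 of the 10 genes were called (limma, 0 at an unadjusted p under 0.05), beside 0.0154% of tested genes.

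In early ch- cells limma called 0 of the 10 genes against ctrl in HL60, beside 1.57% of tested genes and with 2 genes at an unadjusted p under 0.05, Tap1 and Psmb9 (10.7% of tested genes). It called 0 in ML1, beside 2.34% of tested genes and with 3 genes at that level, H2-K1, H2-D1 and Tap1 (12.7% of tested genes). The ML1 count was 2 without ctrl replicate 373 and 1 without early ch- HL60 replicate 528 or 529 or early ch+ ML1 replicate 539 or 541. Between the lines in ch- cells limma called 0 of the 10 genes, beside 0.0539% of tested genes, and 1, H2-D1, had an unadjusted p under 0.05 (log2 fold change −0.36 in HL60 against ML1), beside 6.82% of tested genes.

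**Figure D2:**
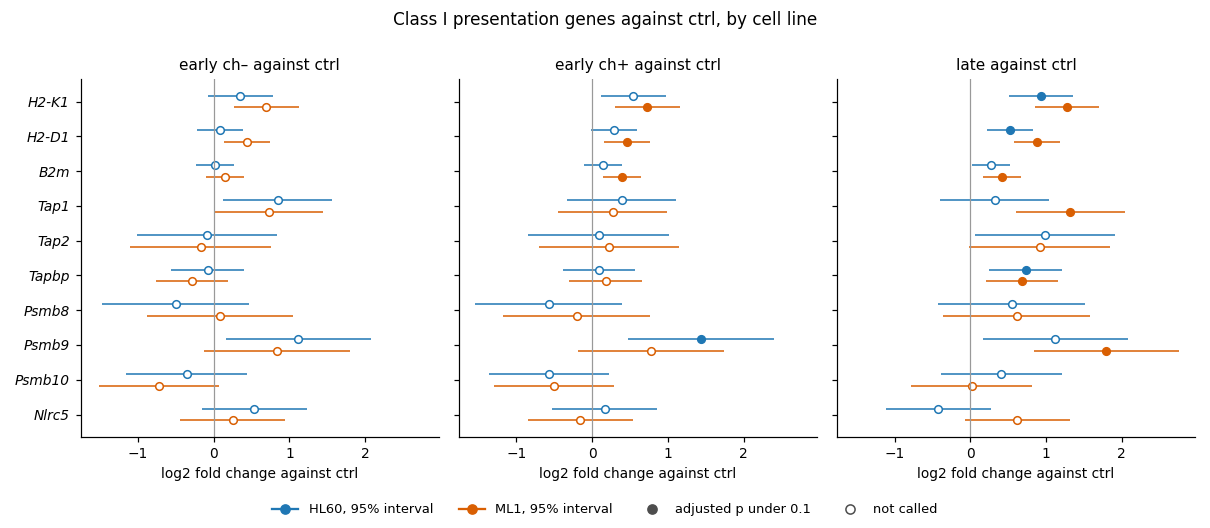
Log2 fold changes against ctrl (horizontal axis) of the 10 genes in early ch–, early ch+ and late cells, HL60 in blue and ML1 in orange, with 95% intervals from the fit of 7 groups. Filled points have an adjusted p under 0.1: 3 in late HL60, 6 in late ML1, 1 in early ch+ HL60 and 3 in early ch+ ML1.

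H2-K1 (ENSMUSG00000061232, chr17:33996017-34000347, minus strand, GRCm38), a classical heavy chain, had log2 values of 9.85, 9.18 and 8.80 in ctrl replicates 373, 374 and 375. Early ch- libraries ran from 9.38 to 10.01 (median 9.95), early ch+ from 9.58 to 10.37 (median 9.92) and late from 10.16 to 10.63 (median 10.34). All late libraries lay above all ctrl and all early ch- libraries, and 3 of 6 lay above all early ch+ libraries. H2-K1 was 2.15-fold higher in late cells than in ctrl (log2 fold change 1.11, SE 0.20, 95% interval 0.70 to 1.51, adjusted p = 0.000121), and in each fit that left out 1 library it stayed called, with log2 fold changes from 0.87 to 1.39. In early ch+ cells it was 1.56-fold higher (adjusted p = 0.0646), a call that was lost without ctrl replicate 374 or 375 or early ch+ ML1 replicate 538 or 539, with an adjusted p of up to 0.398. In early ch- cells its log2 fold change was 0.52 (adjusted p = 0.254).

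H2-D1 (ENSMUSG00000073411, chr17:35262730-35267499, plus strand), also a classical heavy chain, had values of 12.20, 11.67 and 11.67 in ctrl replicates 373, 374 and 375. It ran from 11.87 to 12.38 in early ch- (median 12.06), from 12.02 to 12.50 in early ch+ (median 12.19) and from 12.19 to 12.87 in late libraries (median 12.47). Ctrl replicate 373 was the high one of its group, and 5 of 6 late libraries exceeded it. H2-D1 rose 1.62-fold in late cells (log2 fold change 0.70, SE 0.16, adjusted p = 0.00188), by 0.52 in HL60 (adjusted p = 0.0183) and by 0.88 in ML1 (adjusted p = 4.30e-05). The HL60 call was lost without ctrl replicate 374 or 375 (adjusted p up to 0.107), and also without a variance trend. Of the 51-base windows of their exons, 9.22% in H2-K1 and 12.2% in H2-D1 also occur in another gene, mostly in class I chains such as H2-Q10, H2-Q1 and H2-Q7. H2-K1 and H2-D1 share 132 of these windows with each other (3.80% and 5.09%), so part of their counts depends on how reads were shared out.

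B2m (ENSMUSG00000060802, chr2:122147686-122153083, plus strand), which every class I heavy chain needs to reach the surface, shared no exonic 51-base window with another gene. Its values were 13.38, 12.88 and 13.04 in ctrl replicates 373, 374 and 375. They ran from 13.03 to 13.31 in early ch- (median 13.21), from 13.15 to 13.58 in early ch+ (median 13.34) and from 13.27 to 13.62 in late libraries (median 13.43). Late and ctrl libraries overlapped, with 4 of 6 late libraries above all ctrl libraries. The change was small: 1.27-fold in late cells (log2 fold change 0.35, SE 0.13, adjusted p = 0.0609). This call was lost without ctrl replicate 374 (adjusted p = 0.320) or 375, without late ML1 replicate 581 or 583, without a variance trend (adjusted p = 0.154) and with only the 2 stages in the fit (adjusted p = 0.128). In ML1 it was called in early ch+ (0.40, adjusted p = 0.0608) and late cells (0.42, adjusted p = 0.0153). The early call was lost without ctrl replicate 374 or 375 or early ch+ ML1 replicate 538 or 539 (adjusted p up to 0.280). The late one was lost without ctrl replicate 374 (adjusted p = 0.122), and both were lost without a variance trend. In HL60 its late log2 fold change was 0.28 (adjusted p = 0.174), and 0.41 without ctrl replicate 373 (adjusted p = 0.0329). The late HL60 against late ML1 difference was −0.14 (adjusted p = 0.844).

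The peptide transporter and tapasin followed. Tap1 (ENSMUSG00000037321, chr17:34187553-34197225, plus strand), a subunit of the transporter, had values of 5.99, 7.08 and 6.15 in ctrl replicates 373, 374 and 375. It ran from 6.41 to 7.88 in early ch- (median 7.31), from 6.47 to 7.01 in early ch+ (median 6.75) and from 6.49 to 7.95 in late libraries (median 7.18). The late group fell apart by line: HL60 libraries held 6.81, 6.49 and 6.88 and ML1 libraries 7.95, 7.75 and 7.48, so that only the 3 ML1 libraries exceeded all ctrl libraries. Tap1 was 1.77-fold higher in late cells (log2 fold change 0.82, SE 0.33, adjusted p = 0.0939), and the call was lost in 8 of the 21 fits without 1 library, up to an adjusted p of 0.333 without ctrl replicate 373. It was also lost without a filter, without a variance trend, with quantile normalization, with sample weights and with only the 2 stages in the fit (adjusted p from 0.101 to 0.181). The other 7 libraries were ctrl replicate 375, early ch- HL60 527, early ch- ML1 546, early ch+ ML1 538 and late ML1 581, 582 and 583. In late ML1 cells it was higher than in ctrl by 1.32 on the log2 scale (adjusted p = 0.00704), and in late HL60 cells its log2 fold change was 0.32 (adjusted p = 0.679).

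Tap2 (ENSMUSG00000024339, chr17:34203527-34216321, plus strand), the partner of Tap1, had values of 4.87, 5.66 and 5.45 in ctrl replicates 373, 374 and 375. It ran from 3.98 to 5.78 in early ch- (median 5.43), from 4.56 to 5.97 in early ch+ (median 5.74) and from 5.88 to 6.50 in late libraries (median 6.39). In the late lines its medians were 6.43 in HL60 and 6.35 in ML1, and all 6 late libraries lay above ctrl. Tap2 rose 1.93-fold in late cells (log2 fold change 0.95, SE 0.37, adjusted p = 0.0836). It lost its call without ctrl replicate 373 (adjusted p = 0.304) or 375, late HL60 replicate 397 or 399, or late ML1 replicate 581 or 583, and without a filter (adjusted p = 0.131). By line its log2 fold changes of 0.99 in HL60 (adjusted p = 0.195) and 0.92 in ML1 (adjusted p = 0.184) did not pass the threshold. The difference between the late lines was 0.07 (95% interval −0.86 to 1.00) and turned to −0.17 on library totals.

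Tapbp (ENSMUSG00000024308, chr17:33915899-33929292, plus strand), the chaperone that holds empty heavy chains at the transporter, had values of 8.65, 8.67 and 8.17 in ctrl replicates 373, 374 and 375. It ran from 8.04 to 8.64 in early ch- (median 8.29), from 8.16 to 8.96 in early ch+ (median 8.69) and from 8.69 to 9.46 in late libraries (median 9.32). Late ML1 replicate 582 was the lowest late library at 8.69, just above the highest ctrl library. Tapbp rose 1.63-fold in late cells (log2 fold change 0.71, SE 0.20, adjusted p = 0.0125), with 0.73 in HL60 (adjusted p = 0.0411) and 0.68 in ML1 (adjusted p = 0.0419). The pooled call was lost without ctrl replicate 375 (adjusted p = 0.122). The call in HL60 was lost without ctrl replicate 375 or late HL60 replicate 397 or 399 (up to 0.203), and also without a filter. The ML1 call was lost without ctrl replicate 375 or late ML1 replicate 581 or 583. Of its exonic 51-base windows 20.2% lie in Gm19412, a gene on the opposite strand. In the same way 9.11% of the windows of Tap2 lie in Gm15821, 11.5% of those of Psmb8 in Gm20496 and 4.16% of those of Psmb9 in Tap1. The authors describe the reads as strand-specific, but it is uncertain whether the cDNA kit they name keeps the strand. Whether the strand kept these genes apart was not tested.

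Of the 3 immunoproteasome subunits 1 was called in late cells against ctrl, and differences between the subunits were not tested. Psmb9 (ENSMUSG00000096727, chr17:34181987-34187764, minus strand), which takes the place of Psmb6, had values of 5.05, 5.98 and 4.27 in ctrl replicates 373, 374 and 375. It ran from 5.67 to 6.49 in early ch- (median 6.08), from 5.36 to 7.30 in early ch+ (median 6.16) and from 5.22 to 7.04 in late libraries (median 6.74). Of the late libraries 5 of 6 exceeded all ctrl libraries, and late HL60 replicate 398 stood apart at 5.22. Psmb9 rose 2.75-fold in late cells (log2 fold change 1.46, SE 0.42, adjusted p = 0.0147), the highest fold change of the 10 genes, and lost its call without ctrl replicate 375 (adjusted p = 0.155). In late ML1 cells it rose 3.47-fold (adjusted p = 0.00599), and in late HL60 cells its log2 fold change was 1.12 (adjusted p = 0.143), or 1.63 without replicate 398 (adjusted p = 0.0367) and 1.56 without ctrl replicate 374 (adjusted p = 0.0469). The late HL60 against late ML1 difference was −0.67 (adjusted p = 0.742).

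Psmb8 (ENSMUSG00000024338, chr17:34197721-34201454, plus strand), the counterpart of Psmb5, had values of 7.32, 6.61 and 6.32 in ctrl replicates 373, 374 and 375. Early ch- libraries ran from 4.85 to 7.37 (median 6.74), early ch+ from 5.65 to 7.32 (median 6.32) and late from 6.72 to 7.92 (median 7.37). Late libraries overlapped with ctrl, and early ch- HL60 replicate 528 held the lowest value of all. Its late against ctrl log2 fold change was 0.58 (adjusted p = 0.398). Late cells were 1.96-fold higher than early ch+ cells (adjusted p = 0.0488), a call lost without early ch+ HL60 replicate 524 (adjusted p = 0.124), early ch+ ML1 replicate 541, late HL60 replicate 399 or late ML1 replicate 581.

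Psmb10 (ENSMUSG00000031897, chr8:105935735-105938444, minus strand), the counterpart of Psmb7, had values of 6.46, 7.15 and 6.03 in ctrl replicates 373, 374 and 375. Early ch- libraries ran from 5.30 to 6.76 (median 6.07), early ch+ from 5.68 to 6.61 (median 5.91) and late from 6.23 to 7.09 (median 6.76). No late library exceeded all ctrl libraries, since ctrl replicate 374 was the highest of the 21. Late against ctrl the log2 fold change was 0.21 (adjusted p = 0.747). Late cells were 1.69-fold higher than early ch- cells (adjusted p = 0.0502) and 1.68-fold higher than early ch+ cells (adjusted p = 0.0587). The latter call was lost without early ch+ HL60 replicate 524, early ch+ ML1 replicate 539, late HL60 replicate 397 or 399 or late ML1 replicate 581 (adjusted p up to 0.122). The former was lost without early ch- HL60 replicate 528, early ch- ML1 replicate 543, or late HL60 replicate 397 or 399 (up to 0.130).

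Each immunoproteasome subunit was set against the constitutive subunit it replaces, per kilobase and as a log2 difference of levels. Psmb9 minus Psmb6 was −3.61 ± 0.94 (SD, n = 3) in ctrl, −2.88 ± 0.38 in early ch-, −2.41 ± 0.80 in early ch+ and −2.16 ± 0.60 (n = 6 each) in late cells. Psmb8 minus Psmb5 was −1.99 ± 0.68 in ctrl and −1.41 ± 0.35 in late cells, with −2.28 ± 1.00 in early ch- and −2.66 ± 0.64 in early ch+ cells. Psmb10 minus Psmb7 was −0.27 ± 0.38 in ctrl and −0.31 ± 0.31 in late cells, and −0.98 ± 0.40 and −0.95 ± 0.31 in early ch- and ch+ cells. On these means the induced subunit lay below its constitutive counterpart in each group and pair. The highest libraries of Psmb10 minus Psmb7 stood at 0.04 in ctrl and 0.07 in late cells. The divisor was the merged length of all annotated exons, 1705 bases in Psmb10, 3381 in Psmb8 and 3660 in Psmb9. How far this length sets the sign of the differences was not tested. The constitutive partners were not deregulated in late cells, with log2 fold changes of 0.01 for Psmb5, 0.01 for Psmb6 and 0.25 for Psmb7.

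Nlrc5 (ENSMUSG00000074151, chr8:94434356-94527272, plus strand), the transactivator of class I genes, had values of 6.22, 6.42 and 7.01 in ctrl replicates 373, 374 and 375. It ran from 6.29 to 7.42 in early ch- (median 7.05), from 6.18 to 6.90 in early ch+ (median 6.59) and from 5.67 to 7.20 in late libraries (median 6.76). Late HL60 libraries held 6.30, 5.67 and 6.40 and late ML1 libraries 7.12, 7.19 and 7.20, with no overlap between the lines, and the ML1 libraries lay above all ctrl libraries. The pooled late against ctrl log2 fold change was 0.10 (adjusted p = 0.899). By line it was −0.43 in HL60 (adjusted p = 0.534), which turned to 0.14 on library totals, where the median of all tested genes was 0.58, and 0.62 in ML1 (adjusted p = 0.239). With all libraries in the fit and no rescaling, Nlrc5 was not called in any of the 18 comparisons. On library totals Nlrc5 was called higher in late against ctrl (log2 fold change 0.79, adjusted p = 0.0596), in late against early ch+ (0.71, adjusted p = 0.0367) and in late ML1 against ctrl (adjusted p = 0.000986), 3 comparisons in which most tested genes were then called. It was also called lower in late HL60 against late ML1 (−1.29, adjusted p = 0.0245), beside 5.43% of tested genes.

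Promoters were read because several of these genes were higher together in late cells. Windows of 300 bases across the RefSeq gene start (GRCm38.p6) were at hand for 8 of the 10 genes, and Tap2 and Nlrc5 had none. In 4 of the 8 the window does not reach the Ensembl start used for the coordinates above and lies downstream of it, by 114 bases in H2-D1, 184 in Psmb9, 224 in Psmb8 and 3329 in Tapbp. The motifs searched, on both strands, were an interferon regulatory factor core (AANNGAAA), a κB motif (GGG, any 3 bases, T, any base, CC), a cyclic AMP response element core (TGACG), the Y box (CCAAT) and the gamma-activated site (TTCNNNGAA), all chosen after these windows had been read. The 4 windows printed here come from genes called in late cells, and capitals mark matches to any of the motifs other than the gamma-activated site. They are H2-K1 (chr17:34000298-34000597, minus strand), H2-D1 (chr17:35262844-35263143, plus), B2m (chr2:122147437-122147736, plus) and Tap1 (chr17:34187306-34187605, plus).
H2-K1: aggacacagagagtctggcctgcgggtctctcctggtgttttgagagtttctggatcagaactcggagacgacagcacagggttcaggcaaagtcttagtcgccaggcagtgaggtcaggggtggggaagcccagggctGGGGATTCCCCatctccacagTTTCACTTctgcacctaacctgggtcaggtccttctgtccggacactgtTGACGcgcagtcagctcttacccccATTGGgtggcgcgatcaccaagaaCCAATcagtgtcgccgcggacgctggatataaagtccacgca
H2-D1: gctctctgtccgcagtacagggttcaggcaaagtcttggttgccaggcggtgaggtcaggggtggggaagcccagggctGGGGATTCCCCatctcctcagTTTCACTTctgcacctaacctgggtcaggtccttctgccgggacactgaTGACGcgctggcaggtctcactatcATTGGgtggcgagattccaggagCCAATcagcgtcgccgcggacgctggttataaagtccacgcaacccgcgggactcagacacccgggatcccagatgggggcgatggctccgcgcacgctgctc
B2m: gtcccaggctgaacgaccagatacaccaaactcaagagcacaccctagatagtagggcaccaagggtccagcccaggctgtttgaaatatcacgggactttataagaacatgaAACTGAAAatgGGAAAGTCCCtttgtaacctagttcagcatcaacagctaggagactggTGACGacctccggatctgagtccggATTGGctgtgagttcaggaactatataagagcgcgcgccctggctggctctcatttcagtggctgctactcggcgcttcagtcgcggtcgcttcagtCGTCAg
Tap1: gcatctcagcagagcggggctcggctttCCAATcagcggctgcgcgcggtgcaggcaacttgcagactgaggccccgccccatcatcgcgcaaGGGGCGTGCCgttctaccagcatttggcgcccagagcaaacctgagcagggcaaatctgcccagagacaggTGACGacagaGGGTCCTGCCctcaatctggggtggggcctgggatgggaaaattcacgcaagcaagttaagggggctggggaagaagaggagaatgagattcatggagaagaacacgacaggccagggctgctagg

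H2-K1, H2-D1 and B2m each held all 4 of these motifs, as did 83 of 32851 promoters (0.253%). The motifs were picked from these windows and H2-K1 and H2-D1 are related genes with much sequence in common, so this share is no measure of enrichment. In H2-K1 and H2-D1 the κB motif matched at 2 overlapping positions. Alone, the interferon regulatory factor core was in 3 of the 8 windows and in 23.9% of all promoters, the κB motif in 5 and 17.4%, the TGACG core in 5 and 20.8%, and the Y box in 6 and 37.4%. The gamma-activated site was in 1 of the 8, Psmb8, and in 8.30% of all promoters. Tap1 and Psmb9 are transcribed away from each other, and their windows shared 275 bases (chr17:34187306-34187580), so their matches there are the same letters. A match describes the letters only, and no binding was measured.

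The 10 genes were not equally alike over the 21 libraries. Pearson r over their 45 pairs ran from −0.28 (Psmb10 and Nlrc5) to 0.91, with a median of 0.36, and 36 pairs were above 0. H2-K1 and H2-D1 gave 0.91, H2-D1 and B2m 0.88 and H2-K1 and B2m 0.82, the highest values among the pairs. H2-K1 and H2-D1 share exonic sequence, while B2m shares none. Tap1 and Psmb9, neighbours on the chromosome, gave 0.57. With the mean of each of the 7 groups of stage and line removed, the median over pairs was 0.06, and 25 of 45 pairs were above 0. The lowest pair was then H2-D1 and Nlrc5, at −0.57. The 3 pairs of chains then gave 0.72 for H2-K1 and H2-D1, 0.83 for H2-D1 and B2m and 0.71 for H2-K1 and B2m. The genes outside the 10 whose values were most like the mean of the standardized members (n = 21 libraries) were Col6a2 (r = 0.944), Col6a1 (r = 0.926), Zbp1 (r = 0.915), Nid1 (r = 0.910) and Tmsb4x (r = 0.907). Col6a1, Col6a2 and Nid1 encode extracellular matrix proteins, Zbp1 a sensor of nucleic acids and Tmsb4x an actin-binding peptide. These 5 values of r were taken over all 21 libraries with the groups left in.

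Of the 10 genes 7 lie on chromosome 17 between Tapbp and H2-D1 (chr17:33915899-35267499). Of the 48 other tested genes of this interval 5 were higher and 3 lower in late cells than in ctrl (16.7%, beside 21.5% of all tested genes). Their median log2 fold change was 0.05.

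Other class I heavy chains, among them nonclassical ones, gave 3 of 15 tested genes higher in late cells than in ctrl, with a median log2 fold change of 0.47. For this and each list that follows, the background in late cells against ctrl is 21.5% of all tested genes. With all libraries the 3 higher chains were H2-T10 (1.13, adjusted p = 0.0392), H2-Q4 (0.96, adjusted p = 0.0108) and Mr1, which presents vitamin metabolites (0.61, adjusted p = 0.0629). By line limma called 0 of the 15 in late HL60 cells, with 3 at an unadjusted p under 0.05 (beside 13.7% and 21.3% of all tested genes), and 4 in late ML1 cells, all higher, beside 22.0%. H2-Q7 was lower in late HL60 than in late ML1 cells (−1.30, adjusted p = 0.00945). Among 16 genes of peptide loading and trimming 3 were higher and 3 lower, with a median of 0.11, which turned to −0.041 without ctrl replicate 375. Tapbpl, a tapasin relative that edits peptides (1.36, adjusted p = 0.0285), and Erap1, the aminopeptidase that trims peptides in the endoplasmic reticulum (1.26, adjusted p = 0.000212), were higher. Sec61a1, a channel protein of that membrane (−0.69, adjusted p = 0.00123), and Ggta1 (−0.93, adjusted p = 0.0830) were lower. Ggta1 encodes a galactosyltransferase, which is not known to load or trim peptides, and without it 3 of 15 genes of the list were higher and 2 lower, with a median of 0.26.

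Of the 14 constitutive proteasome subunits 2 were higher in late cells, Psma3 (0.72, adjusted p = 0.0238) and Psma7 (0.65, adjusted p = 0.0223), with a median of 0.05. Of 8 tested activators and assembly factors of the proteasome, Psme3 was higher (0.74, adjusted p = 0.00959) and Psme4 lower (−0.47, adjusted p = 0.0622), with a median of 0.57. The catalytic core as a whole thus had a median near that of all tested genes (0.02).

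Genes of interferon signalling and class I transcription had 9 of 27 tested members higher in late cells, with a median log2 fold change of 0.28, and 5 higher and 1 lower without ctrl replicate 375. The examples were Usp18, a brake on interferon signalling (1.39, adjusted p = 0.0348), Irf7 (1.32, adjusted p = 0.00850), Relb (1.19, adjusted p = 0.0120) and Stat2, a mediator of type I interferon signals, whose mean was 8.75 in late cells and 7.65 in ctrl (adjusted p = 0.00275). Of 34 interferon-stimulated genes 25 were higher and 1 lower, with a median of 1.24, and without ctrl replicate 375 these counts were 21 and 1, beside 2212 of 12976 tested genes called. The examples were Zbp1 (2.92, adjusted p = 3.91e-07), the guanylate-binding proteins Gbp2 (2.13, adjusted p = 4.41e-06) and Gbp3 (2.07, adjusted p = 0.00220), and Parp14 (1.90, adjusted p = 2.53e-05). In early cells against ctrl, 8 of the 34 were higher in ch+ (median 0.54, beside 6.17% of all tested genes called) and 1 in ch- (median 0.30, beside 1.92%). Without ctrl replicate 375 these counts were 5 (beside 4.89%) and 1 (beside 1.05%). In ch+ against ch- cells 3 of the 34 were higher, beside 6.26%. In late HL60 16 of the 34 were higher (13.7% of all tested genes called) and in late ML1 27 (22.0%), with medians of 1.02 and 1.44. Between the late lines limma called 0 of the 34 (4.09% of all tested genes), with 9 at an unadjusted p under 0.05 (10.9%). Their median was −0.42 in HL60 against ML1.

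**Figure D3:**
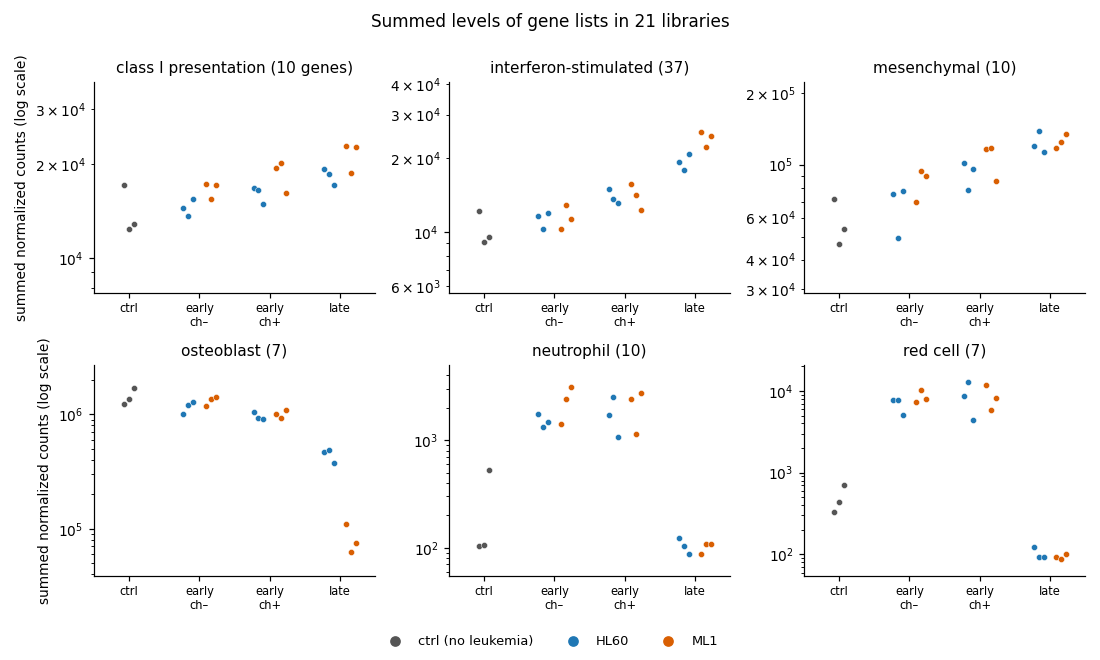
Summed normalized counts (vertical axes, log scale) of the 10 class I presentation genes and of 5 other lists in each of 21 libraries, colored by cell line. Class I presentation sums, of which B2m gave 59.5%, ran from 12368 to 17105 in ctrl and from 17132 to 22942 in late libraries. Neutrophil and red cell sums were highest in the early libraries.

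Class II presentation, the pathway of professional presenting cells, was near the floor. Of the 10 class II genes found, 6 were under 10 normalized counts in each of the 21 libraries, among them H2-Aa and H2-Ab1, and the class II transactivator Ciita was under it too. Cd74, the invariant chain and the only gene of the list that passed the filter, had a late against ctrl log2 fold change of 0.51 (adjusted p = 0.581). Without ctrl replicate 375 this fold change was 1.09, and it was not called there either. Cd74 was higher in late ML1 than in ctrl (adjusted p = 0.0246) and lower in late HL60 than in late ML1 (log2 fold change −1.97, adjusted p = 0.0116).

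Markers of other cells also moved with the groups, and their part in the class I changes was not tested. Neutrophil markers summed to 104, 106 and 531 normalized counts in ctrl replicates 373, 374 and 375, to 1333 to 3121 in early ch-, 1069 to 2747 in early ch+ and 88 to 123 in late libraries, with S100a9 giving 25.3% of the sum. Of 10 such markers 9 were higher than in ctrl in ch+ (6.17% of all tested genes called) and 9 in ch- cells (1.92%). In late cells 3 were lower, such as Ngp (−1.63, adjusted p = 0.0507). Without ctrl replicate 375, left out after seeing the data, limma called 0 of the 10 in late cells. There 1, Lcn2, had an unadjusted p under 0.05 (beside 24.2% of tested genes), and it was higher in late cells (log2 fold change 1.02). Ngp then had a log2 fold change of −0.22 (adjusted p = 0.817). Red cell markers summed to 330 to 697 in ctrl, 5094 to 10242 in early ch-, 4357 to 12924 in early ch+ and 88 to 124 in late libraries, Hbb-bs giving 44.3%. All 7 were higher in each early group than in ctrl (6.17% of all tested genes called in ch+ and 1.92% in ch-). In late cells 4 were lower, and these counts were the same without ctrl replicate 375. Ctrl replicate 375 was the ctrl library highest in both sums, and also in the osteoblast, endothelial and macrophage sums. It was not the highest in the blood cell sum (137, against 151 in replicate 374) or in the mesenchymal and chondrocyte sums. Whether any of these bears on the class I calls lost without this library was not tested.

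Blood cell markers summed to 99 to 151 in ctrl, 201 to 357 in early ch-, 182 to 254 in early ch+ and 83 to 109 in late libraries, with Lcp1 giving 30.3%. Of 4 tested, 2 were higher than in ctrl in early ch+ (6.17% of all tested genes called) and 1 in early ch- cells (1.92%). In late cells 1, Lcp1, was lower than in ctrl (−1.70, adjusted p = 0.000229). Against early ch+ cells 3 of the 4 were lower in late cells (19.7% of all tested genes called), and 3 against early ch- cells (22.5%). Of 8 macrophage markers 5 were under 10 normalized counts in each library, and the 1 tested, Mrc1, was lower in late cells (−0.91, adjusted p = 0.0997, and 0.370 without ctrl replicate 375). The list summed to 41 to 67 in late libraries and 56 to 107 in ctrl. Of 9 tested endothelial markers 1 was lower in late cells, Esam (−0.99, adjusted p = 0.0774, and 0.266 without ctrl replicate 375). By line 4 of the 9 were lower than in ctrl in late ML1 cells (22.0% of all tested genes called), and limma called 0 in late HL60 cells (13.7%). Late cells were lower than early ch+ cells in 3 of the 9 (19.7%) and lower than early ch- cells in 1 (22.5%).

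The mesenchymal cells sorted at the late stage differed in their own markers. 7 of 10 mesenchymal markers were higher and 1 lower than in ctrl, with a median log2 fold change of 0.95, such as Pdgfrb (2.00, adjusted p = 3.20e-09) and Lepr (1.97, adjusted p = 1.22e-08). Osteoblast markers were lower in 6 of 7, with a median of −2.45, and they summed to 1232258 to 1683224 normalized counts in ctrl and 62213 to 483516 in late libraries, of which Col1a1 gave 92.3% over all libraries. By line the late osteoblast markers differed, with 7 of 7 higher in HL60 than in ML1, beside 4.09% of all tested genes called. Chondrocyte markers were lower in 6 of 6, with a median of −3.76 and a summed level of 2525 to 13852 in late against 64872 to 142584 in ctrl libraries, Col2a1 giving 89.6%. By line 6 of 6 were higher in late HL60 than in late ML1 cells at an unadjusted p under 0.05, beside 10.9% of tested genes. In early ch+ cells 6 of 6 chondrocyte markers were also lower than in ctrl, beside 6.17% of all tested genes called. The part of this shift among mesenchymal cells in the class I values was not tested.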

How the data were processed

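Bulk RNA of 21 libraries of sorted Nes low cells had been sequenced as 51-base paired reads. The authors aligned them to mm10 with STAR 2.5.1b, counted Ensembl genes with RSEM 1.2.29, and used DESeq2 (1.10.1 by the labels, a later version by the study's methods) for size factors and a regularized log. The deposited values run from −2.33 to 22.44 and were read as log2, although the study's methods speak of log10. The depth of each library is unknown. Genes with a mean of at least log2 of 10 were tested (12976 of 26852) by limma 3.58.1 under R 4.3.3 (trend on, two-sided) and adjusted by Benjamini-Hochberg over all tested genes. Pooled stages came from a fit of 4 groups and lines from a fit of 7. Figures and summaries used Python 3.11.15, pandas 2.3.3 and numpy 2.4.6. The genes named are the 10 members, at most 4 called examples of each other list with the largest absolute change in late cells against ctrl, and the 5 genes most correlated with the mean of the standardized members. H2-Q10, H2-Q1, H2-Q7, Gm19412, Gm15821 and Gm20496 are named for shared sequence, and other markers by their role. Members and lists were chosen with earlier results of these data known. Other filters, scalings, variance models, thresholds and left-out libraries were tried.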

Additional observations from a re-analysis of the deposited data

Results flagged for a closer look

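In Psmb9, late HL60 replicate 398 had a log2 value of 5.22, while the other 5 late libraries lay between 6.71 and 7.04. Its gap to the nearest of them, over the range of the group, was above the 95% critical value of Dixon's test for 6 libraries. This was 1 of 30 groups tested, and chance alone gives about 1 in 20. Without this library Psmb9 remained higher in late cells than in ctrl (log2 fold change 1.73, adjusted p = 0.00198).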

How the results depend on the processing

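No called member reversed its direction under another setting or without any 1 library. Under other settings 229 of 301 called values stayed called and 72 did not; without 1 library 600 of 693 did and 93 did not. For each moved count the cause was not tested, beyond what the setting itself does. Late against ctrl (7 called) gave 4 at adjusted p under 0.05, 2 when the log2 fold change also had to reach 1 in size (the fold limit), 10 rescaled to library totals, 6 with a mean of at least log2 of 50 (the filter of 50), quantile normalization or weights, and 5 without a filter, without a trend and with only the 2 stages. Early ch+ against ctrl (1) gave 0 without a filter, without a trend, with sample weights, at 0.05 and with the fold limit, and 2 in the fit of 7 groups. Late against early ch+ (6) gave 2 without a filter and 5 with quantile normalization, without a trend or with the filter of 50. It gave 10 rescaled to library totals, 3 at 0.05 and 0 with the fold limit. Late against early ch- (6) gave 5 without a trend, where B2m lost its call, and 7 with quantile normalization or weights. It gave 9 rescaled, 4 at 0.05 and 1 with the fold limit. Late HL60 against ctrl (3) gave 2 without a filter, 2 without a trend, 4 with quantile normalization, 9 rescaled and 0 with the fold limit. Late ML1 against ctrl (6) gave 5 without a trend, 10 rescaled and 3 with the fold limit. Early ch+ HL60 against ctrl (1) gave 0 without a filter, with quantile normalization, without a trend, with weights and at 0.05. Early ch+ ML1 against ctrl (3) gave 0 without a filter, without a trend and with the fold limit, 1 with weights and at 0.05, and 2 with quantile normalization. Early ch- ML1 against ctrl (0) gave 1 with the filter of 50, which left 9 of the 10 genes tested. Ch+ against ch- in ML1 (0) gave 1 rescaled. Late HL60 against late ML1 (0) gave 1 with the filter of 50, with quantile normalization and without a trend, and 3 rescaled and with weights. Of all tested genes 5.43% were called there when rescaled and 9.12% with weights. Rescaling put the median of all tested genes at 0.58 in late HL60 and 0.84 in late ML1 against ctrl and at −0.24 between them, and called 42.6% and 67.7% of tested genes against ctrl, 69.6% in late against early ch+ and 78.3% in late against early ch-.

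Without 1 library the counts ranged over 2 to 7 in late against ctrl, 0 to 2 in early ch+ against ctrl, 0 to 1 in early ch- against ctrl, 1 to 6 in late against early ch+, 4 to 7 in late against early ch-, 1 to 4 in late HL60 and 5 to 6 in late ML1 against ctrl, 0 to 2 in early ch+ HL60, 0 to 3 in early ch+ ML1 and 0 to 2 in early ch- ML1 against ctrl, and 0 to 1 between the late lines.

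Single genes were followed in the pooled comparisons, in the late ones by line and, elsewhere, where called. Among these, log2 fold changes that turned sign were all uncalled: Nlrc5 in early ch+ against ctrl to 0.00 with quantile normalization, Psmb10 in ch+ against ch- to −0.037 and in late ML1 against ctrl to −0.003 with weights, and on library totals Nlrc5 in late against early ch- to 0.47 and in late HL60 against ctrl to 0.14, and Tap2 and Tapbp between the late lines to −0.17 and −0.20. The cause was not tested. Without 1 library, Nlrc5 ran from −0.069 to 0.33 in late against ctrl, −0.16 to 0.24 in early ch+ against ctrl and −0.019 to 0.29 in late against early ch+. Psmb10 ran from −0.047 to 0.51 in late against ctrl, −0.24 to 0.32 in late ML1 against ctrl and −0.13 to 0.16 in ch+ against ch-. Tap2 ran from −0.072 to 0.34 in early ch+ and −0.36 to 0.11 in early ch- against ctrl, and −0.11 to 0.22 between the late lines. Tapbp ran from −0.031 to 0.23 in early ch+ against ctrl and −0.20 to 0.19 between the late lines. In early ch- against ctrl B2m ran from −0.021 to 0.23 and Psmb8 from −0.42 to 0.13. Psmb8 ran from −0.38 to 0.22 between the late lines, Psmb9 from −0.086 to 0.30 in ch+ against ch- and Tap1 from −0.12 to 0.18 in late against early ch-. The labels pair no libraries. After seeing the data, ch+ and ch- libraries of a line were paired in the order of their numbers as a replicate block. The deviations of such pairs from their group means correlated at −0.02 to 0.05, and in 3 of 6 pairs both libraries were most like their partner. With this block limma called 0 of the 10 genes in ch+ against ch- cells, pooled and in each line, and 1, B2m, had an unadjusted p under 0.05 in the pooled fit (adjusted p = 0.252), beside 15.7% of tested genes. Reads per library are not given, so counting error could not be separated from differences between mice.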
